A study of Mus musculus with 6 samples.

Results

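The VEGF ligands and their receptors in "Digits in a Dish" (DID) cultures were described from single-cell RNA sequencing. The 9 genes were taken by symbol from the gene list of the deposited matrices, 9 of 32286 features, and all 9 had UMIs in each of the 6 libraries and passed the filter on low counts in the comparisons of whole cultures and of cell classes. They are the ligands Vegfa, Vegfb, Vegfc and Pgf, the tyrosine kinase receptors Flt1 (VEGFR1), Kdr (VEGFR2, Flk1) and Flt4 (VEGFR3), and the neuropilin co-receptors Nrp1 and Nrp2. DID cultures were grown from pooled distal forelimb mesenchyme of wildtype CD-1 mouse embryos at E11.5, which was dissociated and plated again at high density. They were sequenced at Day 2, Day 7 and Day 10 of culture, with 2 cultures (replicates A and B) per day and no treatment or mutant, so the labels set the groups apart by time in culture. Each day has its own cultures and libraries, so effects of time and of embryo pool, plating or capture cannot be told apart. The labels give no cell sorting, so any cell type of the dissected tissue may be present. The question was which cells held ligand transcripts and which held receptor transcripts, and how both changed with time.

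VEGF-A is the main growth factor for blood vessels. It signals through KDR, while FLT1 binds VEGF-A, VEGF-B and PlGF (the product of Pgf) with high affinity and acts in large part as a sink for ligand, and FLT4 with VEGF-C serves lymphatic vessels. Neuropilins bind VEGF isoforms and also class 3 semaphorins, for which they bind the ligand while a plexin passes on the signal. In the limb, VEGF-A from condensing mesenchyme shapes the first vessels, and VEGF-A from hypertrophic chondrocytes later calls vessels and osteoclasts into cartilage.

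The 6 libraries held 9448 to 16486 cells and 178022112 to 260245417 UMIs after the limits on cell quality. Median UMIs per cell ran from 3871 in Day 2 replicate B to 24197 in Day 10 replicate A, and the former library stood apart with 41.4% of its cells under 3000 UMIs. Between 24 and 67 cell barcodes were shared by any pair of libraries, at most 0.543% of the cells of either. Replicates are separate cultures, so p-values of whole cultures measure the spread between cultures with n = 2 per day. The tests of classes of cells described below drew the spread of a gene almost wholly from other genes. Tests of clusters drew it from several clusters of the same 2 libraries. The p-values of classes and clusters thus do not measure how far the 2 cultures of a day differ for that gene. Where a library was left out, its day kept 1 culture, so those p-values rest on the spread of the other days. Endothelial cells were close to absent by their defining genes. In CPM (UMIs of a gene scaled to a common library total), Cdh5 (VE-cadherin) was at 0 to 0.03 and Pecam1 (CD31) at 0.25 to 0.60 in the 6 libraries, Tie1 and Robo4 were each at 0 in at least 1 library and Sox17 stayed under 0.06. Of 12 endothelial genes that could be tested, 2 rose and 7 fell from Day 2 to Day 7, with Emcn (-3.09) and Tek (-2.12) falling most on the log2 scale. Over all genes tested 35.7% rose and 34.6% fell in that step. From Day 7 to Day 10, 4 rose, Sox18, Ecscr and Mmrn2 among them, and 0 fell (26.3% and 25.9% of all genes). From Day 2 to Day 10, 4 rose and 4 fell (39.0% and 38.2% of all genes).

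In whole cultures, 8 of the 9 genes changed between Day 2 and Day 7, when 70.3% of all 18987 genes tested did, so the count itself is near the background. The 3 that rose were Vegfa, Nrp1 and Nrp2 (35.7% of all genes rose), and the 5 that fell were Vegfb, Vegfc, Pgf, Flt1 and Kdr (34.6% fell). From Day 7 to Day 10, 6 of 9 changed and all 6 rose, against 52.2% of genes called, 26.3% of genes rising and 25.9% falling. Over the whole interval from Day 2 to Day 10, which shares its libraries with both steps, 7 of 9 changed (background 77.3%), 4 upward (39.0%) and 3 downward (38.2%). The test used was edgeR's quasi-likelihood test on UMIs summed per library, its p-values adjusted by Benjamini-Hochberg over every tested gene and called under 0.05. A sum over a culture cannot tell fewer cells of a type from less RNA per cell. Levels of whole cultures are given as CPM with library sizes scaled by TMM, and 3' counts give no level per length, so levels are not compared between genes.

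**Figure D1:**
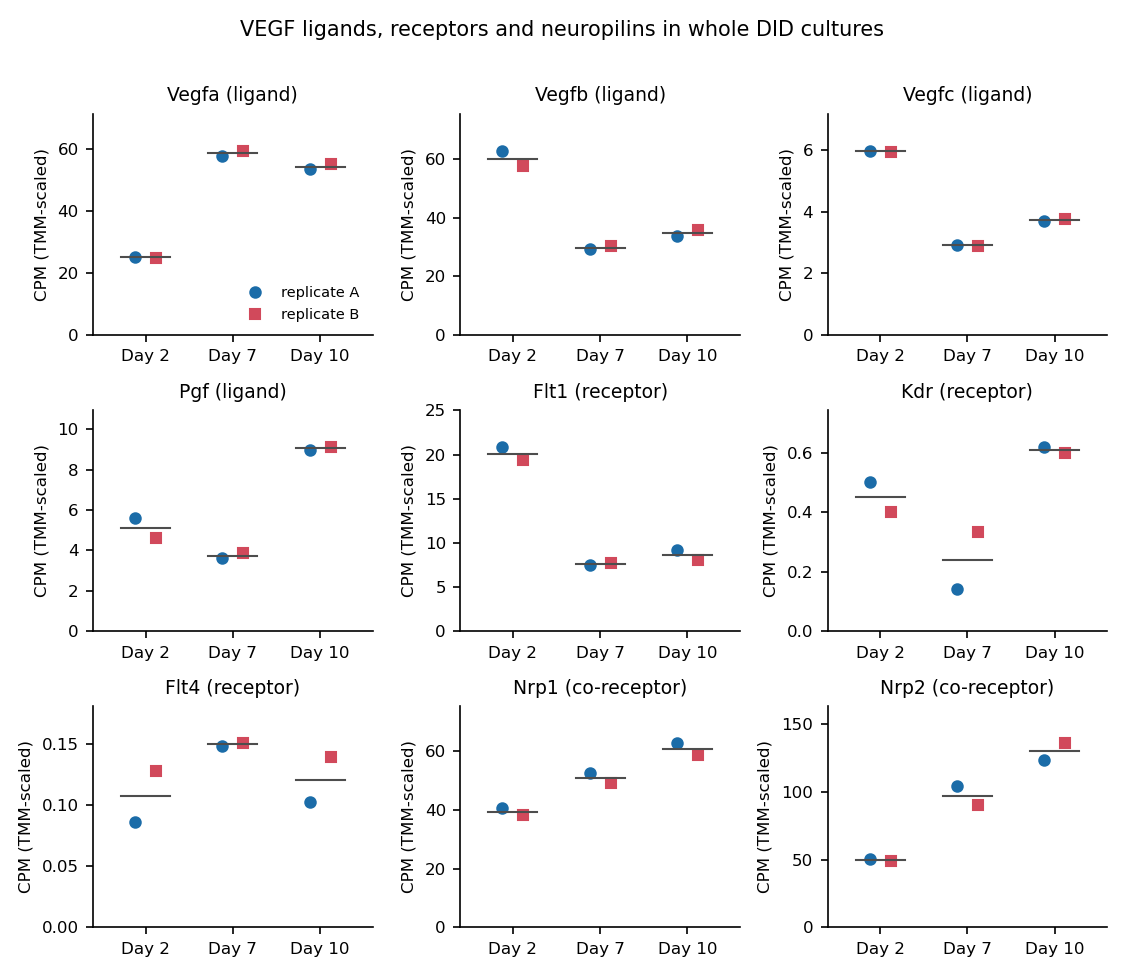
Each panel shows one gene, with the day of culture on the x axis and its TMM-scaled CPM on the y axis (linear, from 0). Points are the 2 libraries of a day and the line is their mean; Vegfa stands at 24.8 and 25.2 at Day 2 and between 53.4 and 59.5 later, while Flt1 falls from 20.9 and 19.4 to between 7.47 and 9.23.

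Vegfa, the principal ligand, was at 25.2 and 24.8 CPM at Day 2, at 57.6 and 59.5 at Day 7 and at 53.4 and 55.1 at Day 10. Both later days lay above Day 2 with no overlap, and they did not overlap each other either. Each range rests on 2 libraries, and no share over all genes is given, so a lack of overlap here and below is a description only. The rise from Day 2 to Day 7 was 1.23 ± 0.05 (log2 fold change ± SE, n = 2 per day, adjusted p = 9.37e-08), and the step to Day 10 was -0.11 ± 0.05 (adjusted p = 0.0823, edgeR's quasi-likelihood test with Benjamini-Hochberg adjustment). Without Day 2 replicate A that small step passed the test (-0.11, adjusted p = 0.0479). The upstream sequence of Vegfa is shown with those of the receptors Flt1 and Kdr because these are the ligand that rose and the pair of receptors that bind it. The gene is annotated in GENCODE vM21 at chr17:46016993-46032369 of GRCm38, on the minus strand. RefSeq places a start of Vegfa at its upstream end on GRCm38.p6, and the 250 bases before it (chr17:46032378-46032627, minus strand) are printed here 5′ to 3′, with the letters of a GC box (GGGCGG or its complement CCGCCC) and of an ETS core of the PU.1 type (GAGGAA or TTCCTC) in capitals.
Vegfa: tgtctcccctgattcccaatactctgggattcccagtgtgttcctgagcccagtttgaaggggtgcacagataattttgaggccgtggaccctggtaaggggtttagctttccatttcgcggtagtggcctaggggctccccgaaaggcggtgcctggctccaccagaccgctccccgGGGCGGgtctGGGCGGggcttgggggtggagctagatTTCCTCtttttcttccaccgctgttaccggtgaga
This window held 2 GC boxes and 1 ETS core. The core of a hypoxia response element (ACGTG or CACGT) was not among its letters, though it was found 1 time in the window before a second, downstream RefSeq start of Vegfa (chr17:46025164-46025413). Of 32851 RefSeq windows of 250 bases, 32.7% held a GC box, 23.3% the ETS core and 16.6% the hypoxia core, and a match of letters is no binding site.

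Vegfb, a ligand of FLT1 alone among the tyrosine kinase receptors, ran the other way. It was at 62.9 and 57.5 CPM at Day 2, at 29.4 and 30.2 at Day 7 and at 33.7 and 35.9 at Day 10, so Day 2 was the high day and no days overlapped. The fall was -1.02 ± 0.06 (adjusted p = 9.79e-07) and the later rise 0.22 ± 0.06 (adjusted p = 0.0142, edgeR's quasi-likelihood test with Benjamini-Hochberg adjustment). The rise was lost without Day 7 replicate A (0.20, adjusted p = 0.0999), Day 7 replicate B (0.25, adjusted p = 0.0523) or Day 10 replicate B (0.18, adjusted p = 0.0952), and in cells thinned to 1000 UMIs (0.32, adjusted p = 0.0691).

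Vegfc, a ligand of FLT4, was at 5.99 and 5.95 CPM at Day 2, 2.94 and 2.91 at Day 7, then 3.70 and 3.78 at Day 10. It fell by 1.03 ± 0.07 on the log2 scale (adjusted p = 2.47e-06) and then rose by 0.36 ± 0.07 (adjusted p = 0.0038, edgeR's quasi-likelihood test with Benjamini-Hochberg adjustment). That rise missed the threshold when all deposited barcodes were summed (0.095, adjusted p = 0.271) and in cells thinned to 1000 UMIs (0.24, adjusted p = 0.583). Pgf, whose product binds FLT1, had its lowest level in the middle, with 5.61 and 4.61 CPM at Day 2, 3.61 and 3.86 at Day 7, then 8.99 and 9.13 at Day 10. No days overlapped for either gene. Pgf fell by 0.45 ± 0.10 (adjusted p = 0.00269), a call lost when all deposited barcodes were summed (-0.20, adjusted p = 0.0755), and then rose by 1.28 ± 0.10 (adjusted p = 3.2e-05), the largest change of a ligand between Day 7 and Day 10.

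Flt1, the high-affinity receptor of VEGF-A, also binds VEGF-B and PlGF. It fell from 20.9 and 19.4 CPM at Day 2 to 7.47 and 7.76 at Day 7 and stood at 9.23 and 8.10 at Day 10, with both later days far under Day 2. The fall was -1.40 ± 0.08 (adjusted p = 5.1e-07) and the later step 0.19 ± 0.08 (adjusted p = 0.0666, edgeR's quasi-likelihood test with Benjamini-Hochberg adjustment). Without Day 10 replicate B, which left 1 culture on that day, the step was 0.28. The gene lies at chr5:147561604-147726011 on the minus strand, and the 250 bases before its RefSeq start (chr5:147726012-147726261) carry 3 GC boxes and 1 ETS core in capitals and no hypoxia core.
Flt1: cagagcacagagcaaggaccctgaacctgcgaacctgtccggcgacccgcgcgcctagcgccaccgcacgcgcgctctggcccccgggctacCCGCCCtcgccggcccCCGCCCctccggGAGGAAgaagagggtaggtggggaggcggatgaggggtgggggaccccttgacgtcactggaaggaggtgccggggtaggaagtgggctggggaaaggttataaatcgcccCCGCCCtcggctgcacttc

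Kdr, the receptor that carries most VEGF-A signalling in endothelium, was rare. It had 116 and 82 UMIs at Day 2, 28 and 62 at Day 7, then 152 and 133 at Day 10, which is 0.50 and 0.40 CPM, 0.14 and 0.33 CPM and 0.62 and 0.60 CPM. The days did not overlap, but the Day 7 libraries differed from each other by more than Day 2 differed from Day 10. The fall to Day 7 was -0.93 ± 0.33 (adjusted p = 0.0331) and the rise to Day 10 was 1.36 ± 0.33 (adjusted p = 0.00832, edgeR's quasi-likelihood test with Benjamini-Hochberg adjustment). The fall was lost without Day 2 replicate A (-0.76, adjusted p = 0.153), Day 2 replicate B (-1.08, adjusted p = 0.0511), Day 7 replicate A (-0.43, adjusted p = 0.19), Day 10 replicate A (-0.92, adjusted p = 0.0517) or Day 10 replicate B (-0.92, adjusted p = 0.05), and also in cells with at least 10000 UMIs alone, a setting chosen after seeing the data (-0.87, adjusted p = 0.081). The gene lies at chr5:75932827-75978458 on the minus strand, and the 250 bases before its RefSeq start (chr5:75978456-75978705) carry 2 GC boxes in capitals, and neither the ETS core nor the hypoxia core.
Kdr: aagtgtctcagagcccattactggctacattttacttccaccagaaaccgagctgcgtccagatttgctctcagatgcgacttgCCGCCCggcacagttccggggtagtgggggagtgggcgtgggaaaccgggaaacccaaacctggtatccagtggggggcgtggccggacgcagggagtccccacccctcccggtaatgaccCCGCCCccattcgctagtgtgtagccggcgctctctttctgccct

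Flt4, the VEGF-C receptor of lymphatic endothelium, had 20 to 31 UMIs per library (0.09 to 0.15 CPM) and passed the test in no comparison of days (adjusted p from 0.203 to 0.63). With all deposited barcodes summed, its difference from Day 2 to Day 7 passed (0.80, adjusted p = 0.0143).

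Both neuropilins rose at each step. Nrp1 was at 40.6 and 38.3 CPM at Day 2, 52.7 and 49.2 at Day 7, then 62.8 and 58.6 at Day 10, a rise of 0.37 ± 0.06 (adjusted p = 0.000536) and then of 0.25 ± 0.06 (adjusted p = 0.00758, edgeR's quasi-likelihood test with Benjamini-Hochberg adjustment). The second rise was lost without Day 7 replicate B (0.21, adjusted p = 0.0764), without Day 10 replicate A (0.20, adjusted p = 0.0623), with all deposited barcodes (0.086, adjusted p = 0.295) and in cells thinned to 1000 UMIs (0.15, adjusted p = 0.398). Nrp2, which prefers VEGF-C and Sema3f, rose more, from 50.7 and 49.1 CPM at Day 2 to 103.9 and 90.2 at Day 7, then 123.7 and 135.8 at Day 10. Its days did not overlap, and the steps were 0.96 ± 0.08 (adjusted p = 5.44e-06) and 0.42 ± 0.08 (adjusted p = 0.00202).

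Cells with endothelial transcripts were then set apart. A cell was taken as an endothelial-marker cell when it had a UMI of at least 3 of 16 endothelial genes, Pecam1 or Cdh5 among them, and none of the 9 genes described here was on that list. Levels inside and outside a class of cells are plain CPM without TMM scaling, so they are not on the scale of the whole-culture levels. The libraries held 15 to 31 such cells, at median depths of 34290 to 47483 UMIs against 3859 to 24155 in the other cells, and the part of depth in the results was not tested. The required Pecam1 or Cdh5 kept most cells out, and in Day 2 replicate A, where 30 cells were admitted, 446, 62 and 6 cells had a UMI of 3, 4 and 5 of the 16 genes. The list also held Egfl7, Erg and Ecscr, which stood at 5.09 to 42.2 CPM in whole cultures, and 0 to 5 cells per library had a UMI of 2 of 9 stricter genes (Pecam1, Cdh5, Tie1, Tek, Emcn, Cldn5, Robo4, Sox17 and Sox18) and none had more.

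The endothelial-marker cells held almost no Kdr. They had 1 Kdr UMI in each Day 2 library and 0 in the 4 later ones, where 0 UMIs allow at most 2.51 to 4.77 CPM, and Flt4 had 0 UMIs in all 6. The Kdr UMI of Day 2 replicate B lay in a cell that was also an immune-marker cell. Cells with 2 of the 9 stricter genes had 0 Kdr UMIs, which allow at most 14.7 to 131 CPM in 1 to 5 cells per library. In Day 2 replicate A the most Kdr UMIs in a cell was 10. Such a cell lay in neither class, as the endothelial-marker and immune-marker cells there held 1 and 0 Kdr UMIs. At Day 2, Vegfc alone of the 9 genes differed from the other cells of the same libraries, in a comparison that called 1.57% of 17588 genes and whose median difference over them was -0.09. It stood at 25.8 and 17.6 CPM inside and 6.63 and 6.73 outside (29 and 20 UMIs, 1.68 ± 0.38, adjusted p = 0.00107, edgeR's quasi-likelihood test with Benjamini-Hochberg adjustment). At Day 7 Flt1 and Nrp1 were higher (2 of 9, background 2.04%), and so they were at Day 10 (2 of 9, background 2.88%). Flt1 was at 17.7 and 20.7 CPM inside against 6.96 and 7.15 outside at Day 7 and at 25.8 and 36.0 against 8.62 and 7.57 at Day 10, log2 differences of 1.24 ± 0.35 and 1.83 ± 0.26 (adjusted p = 0.0235 and 1e-09). Nrp1 was at 83.9 and 81.0 CPM against 49.3 and 45.5 at Day 7 and 99.2 and 96.4 against 58.9 and 55.6 at Day 10 (0.61 ± 0.18 and 0.65 ± 0.16, adjusted p = 0.0389 and 0.00331). Between Day 10 and Day 2 the effect on Flt1 differed by 1.75 ± 0.36 (adjusted p = 0.000197, 1 of 9 genes, background 1.25%), and at Day 2 Flt1 was 26.7 and 22.0 CPM inside and 23.5 and 22.1 outside. The class lay in different clusters on different days, by the clusters rebuilt for each day. At Day 2 cluster 1 held 9 of 30 and 8 of 31 of its cells, with Flt1 at 9.90 and 10.0 CPM over the whole cluster, while clusters 3 and 7, where Flt1 was high, held 5 and 5 of the 30 and 2 and 4 of the 31. At Day 7 cluster 2 held 6 of 18 and 9 of 15, and at Day 10 cluster 3 held 7 of 20 and 11 of 29, and over the whole of these clusters Flt1 was at 15.9 and 17.4 CPM and at 26.0 and 22.6 CPM. At Day 7 and Day 10 the other cells of the class lay outside these Flt1-high clusters. The part of the clusters in the difference was not tested. With at least 4 endothelial genes required, which left fewer cells, none of the 5 calls of single days passed. Calls over all genes fell as well, to 244, 168 and 121 of 17399 at Day 2, Day 7 and Day 10. The log2 differences were then 1.96 for Vegfc at Day 2 (adjusted p = 0.236), 2.19 and 0.75 for Flt1 at Day 7 and Day 10 (adjusted p = 0.0549 and 0.998) and 0.54 and 0.34 for Nrp1 (adjusted p = 0.993 and 0.998). With at least 2 genes required, Nrp1 missed the threshold at Day 7 (0.36, adjusted p = 0.265) and passed it at Day 2 (0.42, adjusted p = 0.0334). Without either library of their own day, Vegfc at Day 2 (1.23 and 1.92) and Flt1 at Day 7 (1.32 and 1.17) also missed the threshold. So did Nrp1 at Day 7 (0.62 and 0.59) and Day 10 (0.65 and 0.63). Nrp1 at Day 7 also missed it without either Day 10 library. Each of these fits left 1 culture on a day. Without Day 7 replicate B, Nrp2 at Day 7 was -1.12, in place of -0.48 with both libraries.

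Kdr was found in another rare class. Immune-marker cells, with a UMI of at least 4 of 10 genes of macrophages and their kin (Tyrobp, Fcer1g, C1qa, C1qb, C1qc, Trem2, Csf1r, Aif1, Laptm5 and Mrc1), numbered 22 and 17 at Day 2, 30 and 51 at Day 7, then 141 and 194 at Day 10. They held 0 and 1 of the Kdr UMIs at Day 2, 12 of 28 and 45 of 62 at Day 7, and 116 of 152 and 103 of 133 at Day 10. At Day 10 that is 76.3% (95% exact binomial interval 68.7 to 82.8) and 77.4% (69.4 to 84.2) of all Kdr in cells with 1.26% and 1.88% of all UMIs. These intervals cover counting error only. Within the class Kdr stood at 12.4 and 33.6 CPM at Day 7 and 35.3 and 23.5 CPM at Day 10. In all other cells Kdr was at 0.57 and 0.46 CPM at Day 2, 0.08 and 0.09 at Day 7, then 0.14 and 0.13 at Day 10. These are plain CPM, whereas the whole-culture levels of Kdr were TMM-scaled. The 0 UMIs of Day 2 replicate A allow at most 6.29 CPM.

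The course of Kdr in whole cultures changed when the immune-marker cells were left out, a setting chosen after seeing the data. In the other cells Kdr fell by 2.36 on the log2 scale from Day 2 to Day 7 (adjusted p = 3.09e-05) and was lower at Day 10 than at Day 2 (-1.63, adjusted p = 0.000158, edgeR's quasi-likelihood test with Benjamini-Hochberg adjustment). In all cells the latter difference was 0.43 (adjusted p = 0.224), so its sign turned. The rise from Day 7 to Day 10 was 0.73 without these cells (adjusted p = 0.0618) in place of 1.36. For the other members the same setting moved no call but that of Flt1 from Day 7 to Day 10, which passed (0.20, adjusted p = 0.0456).

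**Figure D2:**
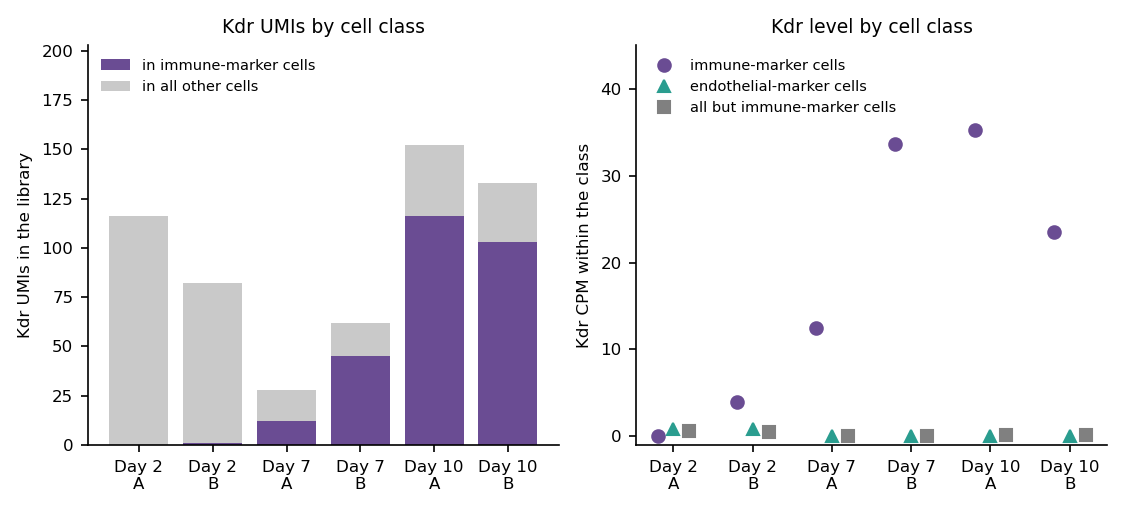
The left panel gives the Kdr UMIs of each library as a bar from 0, split into immune-marker cells and all other cells, and the right panel gives Kdr CPM inside immune-marker cells (circles), endothelial-marker cells (triangles) and all cells but immune-marker cells (squares). At Day 10, 116 of 152 and 103 of 133 UMIs lie in immune-marker cells, and points at 0 are counts of 0.

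Of the 9 genes, 2 differed between immune-marker and other cells at Day 2 (background 22.0% of 17917 genes), 7 at Day 7 (background 29.6%) and 7 at Day 10 (background 44.0%). The median log2 difference was -0.55, 1.19 and 0.004 over the members and -0.61, -0.27 and -0.21 over all genes tested. Kdr was higher by 8.02 ± 0.67 at Day 7 (adjusted p = 4.62e-31) and by 7.77 ± 0.56 at Day 10 (adjusted p = 1.52e-42, edgeR's quasi-likelihood test with Benjamini-Hochberg adjustment). These differences exceeded that of Day 2, which rests on 1 UMI, by 6.62 ± 1.30 (adjusted p = 1.8e-05) and 6.38 ± 1.23 (adjusted p = 8.88e-06). Nrp2 was higher on all 3 days, at 113.2 and 54.8 CPM inside at Day 2, 233.3 and 251.9 at Day 7, then 214.6 and 237.9 at Day 10, with log2 differences of 0.68 ± 0.21, 1.39 ± 0.11 and 0.95 ± 0.10 (adjusted p = 0.00742, 1.62e-32 and 4.34e-20). The Day 2 value rests on replicate A, without which it was -0.041 (adjusted p = 0.987).

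The ligands divided in these cells. Vegfb stood at 47.7 and 50.8 CPM inside against 27.4 and 27.9 outside at Day 7, and at 42.6 and 53.4 against 31.5 and 33.8 at Day 10, higher by 0.78 ± 0.18 (adjusted p = 6.38e-05) and 0.60 ± 0.12 (adjusted p = 5.45e-06). Vegfc stood at 6.22 and 10.5 CPM against 2.74 and 2.64 at Day 7 and at 9.13 and 8.22 against 3.41 and 3.51 at Day 10, higher by 1.63 ± 0.48 (adjusted p = 0.00343) and 1.37 ± 0.30 (adjusted p = 2.32e-05, edgeR's quasi-likelihood test with Benjamini-Hochberg adjustment). Both were higher inside in each of the 4 libraries of Day 7 and Day 10. Vegfa was lower inside in the same 4 libraries, at 49.8 and 27.6 CPM against 54.0 and 55.3 at Day 7 (-0.61 ± 0.18, adjusted p = 0.00325) and 24.1 and 21.9 against 50.6 and 53.0 at Day 10 (-1.13 ± 0.14, adjusted p = 1.04e-14).

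Pgf turned with time in the immune-marker cells. It stood at 7.26 and 8.97 CPM (7 and 12 UMIs) against 3.37 and 3.54 outside at Day 7 (1.19 ± 0.46, adjusted p = 0.0353) and at 3.35 and 2.74 (11 and 12 UMIs) against 8.52 and 8.81 at Day 10 (-1.48 ± 0.35, adjusted p = 0.000103, edgeR's quasi-likelihood test with Benjamini-Hochberg adjustment). These UMIs lay in 4 cells of each library at Day 7 and in 6 and 7 cells at Day 10. Flt1 was lower on all 3 days (-1.75 ± 0.58, -1.51 ± 0.55 and -1.40 ± 0.30, adjusted p = 0.0145, 0.0223 and 1.46e-05), on 1 to 14 UMIs per library, and Nrp1 passed the test on none. Several calls of this class were lost under other choices. Without Day 7 replicate B, Vegfa (-0.33, adjusted p = 0.473), Vegfb (0.59, adjusted p = 0.108), Vegfc (0.98, adjusted p = 0.53) and Pgf (0.90, adjusted p = 0.498) missed the threshold at Day 7, and without Day 7 replicate A Pgf (1.21, adjusted p = 0.0996) and Flt1 (-1.08, adjusted p = 0.243) did. At Day 10 Vegfb was lost without replicate A (0.59, adjusted p = 0.0527) or replicate B (0.34, adjusted p = 0.397) and Flt1 without replicate B (-1.13, adjusted p = 0.0616), and at Day 2 Flt1 was lost without replicate A (-0.50, adjusted p = 0.932). Pgf at Day 7 was also lost with at least 3 immune genes required (1.04, adjusted p = 0.0595) and without either Day 10 library (1.08). Vegfa at Day 2 was -2.86 without replicate A of that day, on 1 UMI in the class. Differences between days passed the test for 4 of 9 genes between Day 7 and Day 2 (background 7.46%), 3 of 9 between Day 10 and Day 2 (background 9.22%) and 1 of 9 between Day 10 and Day 7 (background 1.11%).

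**Figure D3:**
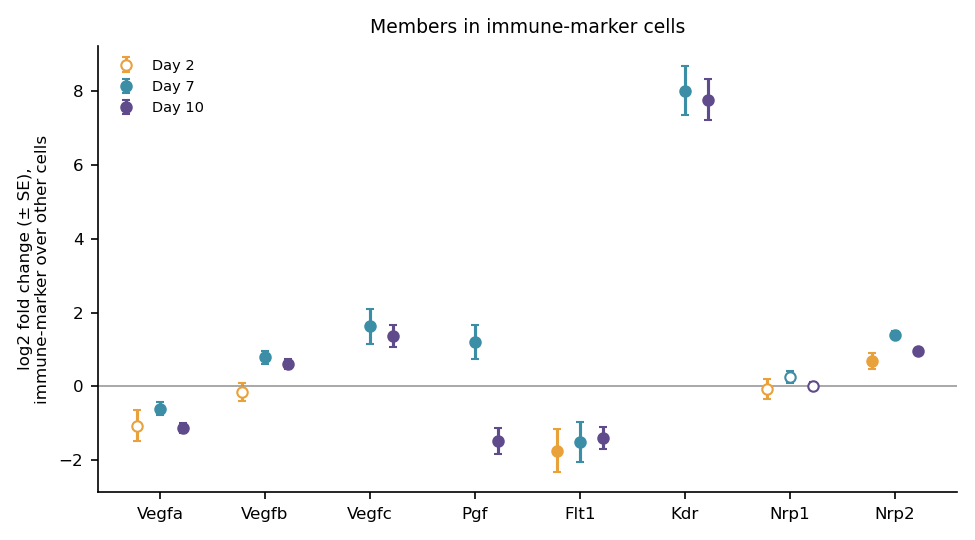
For 8 of the genes, the y axis gives the log2 fold change (± SE) of immune-marker cells over all other cells of the same libraries at each day. Filled points passed an adjusted p of 0.05; Flt4 is left out, as are Kdr, Vegfc and Pgf at Day 2, where a library had 0 UMIs. Kdr stands near 8 at Day 7 and Day 10, with Nrp2 above 0 and Flt1 under 0 on all 3 days.

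The immune-marker cells held osteoclast-like cells as well, and no Kdr UMI was found in those at Day 10. The split by osteoclast genes was chosen after its values were seen, so no test was made. At Day 10, cells with a UMI of at most 1 of 7 osteoclast genes had 111 Kdr UMIs in 128 cells and 101 in 158 cells. Cells with at least 3 osteoclast genes had 0 Kdr UMIs in 5 and in 22 cells, where Ctsk (cathepsin K, the bone-degrading protease) stood at 9073 and 7729 CPM and the macrophage receptor Mrc1 had 0 UMIs. Nrp2 went the other way, with 162.2 and 172.7 CPM in the former cells and 1098 and 545.4 CPM in the latter. Day 10 cells with 2 osteoclast genes had 5 and 2 Kdr UMIs in 8 and 14 cells. At Day 7, the 5 cells of replicate B with at least 3 osteoclast genes had 3 Kdr UMIs, all in 1 cell. The 1 such cell of replicate A had 0. The 0 UMIs of Day 10 come from few cells and do not exclude Kdr there.

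To place the genes in the mesenchyme, cells of each day were clustered again along the study's steps, over 3000 features in place of all genes and with the 9 genes left out of them, which gave 12 clusters at Day 2, 16 at Day 7 and 18 at Day 10. Values per cluster and library below are plain CPM, described without a test unless one is named, and a cluster was given a cell type only where at least 3 of that type's markers were raised. Clusters whose cells had median depths under 10000 UMIs are called shallow, and several of them stood apart from the rest. Clusters 4 and 6 of Day 7 and 4, 5 and 10 of Day 10, most of whose leading genes were noncoding or carried only a predicted gene's number, had medians of 3565 to 4741 UMIs and held the nuclear noncoding RNA Neat1 at 737.1 to 1099 CPM. In these 5 clusters Vegfb was at 4.31 to 11.8 CPM and Nrp2 at 125.0 to 346.4 CPM. Chondrocyte markers were raised in all of them but cluster 5 of Day 10. The numbers raised were 6 and 5 in clusters 4 and 6 of Day 7, and 6 and 8 in clusters 4 and 10 of Day 10. The next values are thus no contrast of cartilage with other tissue. In chondrocyte-like cluster 0 of Day 7 and cluster 1 of Day 10, with medians of 26858 to 36840, Neat1 was at 149.0 to 215.3, Vegfb at 23.5 to 26.0 and Nrp2 at 25.6 to 47.1 CPM. The part of depth and of nuclear RNA in these values was not tested. Cluster 3 of Day 2 was deep in replicate A (457 cells, median 33756 UMIs) and shallow in replicate B (2171 cells, median 3640).

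**Figure D4:**
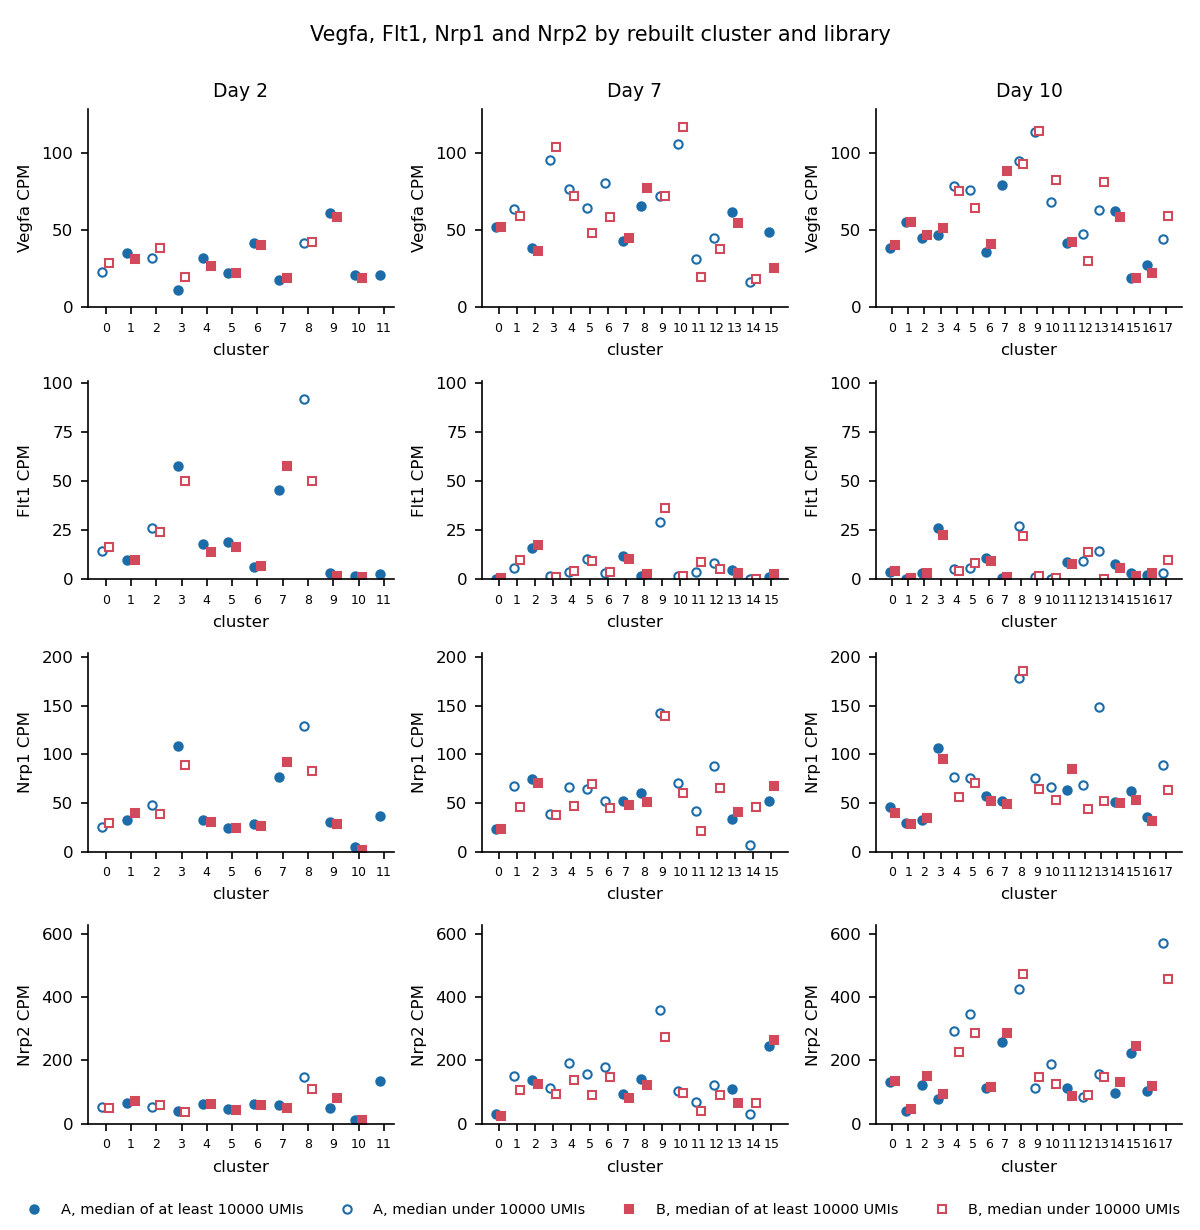
Rows are Vegfa, Flt1, Nrp1 and Nrp2, columns are the days, the x axis numbers the rebuilt clusters of that day and the y axis is CPM from 0 (the same scale across a row). Each symbol is 1 library with at least 10 cells in the cluster, and open symbols are clusters whose cells had a median under 10000 UMIs in that library. Flt1 peaks in Day 2 clusters 3, 7 and 8, Day 7 clusters 2 and 9, and Day 10 clusters 3 and 8, where Nrp1 is high as well.

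Flt1 and Nrp1 shared most of their peaks, which lay in clusters with the stromal genes Tagln, S100a6, Acta2 and Postn and the genes of the osteoblast list raised, and in a few shallow clusters besides. In 6 of the 7 clusters named here for Flt1, all but cluster 9 of Day 7, 3 to 5 genes of the endothelial list were raised too, and 3 to 6 mural markers were in all 7. Neither trait was particular to these clusters. At Day 10 clusters 0, 6 and 16 had 5 endothelial genes raised, with log2 differences of Flt1 from the other clusters of 0.01, 1.41 and -0.58. Cluster 9 of Day 10 had 3 mural markers raised and Flt1 lower (-1.71). The part of the endothelial and mural genes in the Flt1 and Nrp1 levels was not tested. At Day 2, Flt1 was highest by the mean of both libraries in the shallow cluster 8 (91.6 and 50.1 CPM, the third in replicate B, medians of 2814 and 3032 UMIs), which had Ttn, Acan and Matn1 among its leading genes and 7 of 8 chondrocyte markers raised. Beside it stood 2 clusters with those stromal genes raised, cluster 3 (57.4 and 50.2) and the deep cluster 7 (45.5 and 57.8). Cluster 3 was led by Sprr1a, Mal and Perp, followed by genes such as the keratins Krt8 and Krt19. Cluster 7 was led by Ccl20, Prnd, Ccl7 and Krt19, and the contractile genes Tagln, Acta2 and Cnn1 came lower among its leading genes. Nrp1 was highest in clusters 8, 3 and 7 as well (129.3 and 83.0, 108.7 and 89.0, and 77.1 and 91.6 CPM). At Day 7 the deep cluster with Tagln, Acta2 and Prg4 (cluster 2) had Flt1 at 15.9 and 17.4 CPM and held 56.3% and 58.9% of all Flt1 UMIs in cells with 24.8% and 24.3% of all UMIs. At Day 10 cluster 3, led by Foxs1, Ccl20 and Ankrd1, had Flt1 at 26.0 and 22.6 CPM and held 57.6% and 53.4% of Flt1 UMIs in 19.2% and 18.2% of all UMIs. Flt1 was also at 29.4 and 36.5 CPM in the shallow cluster 9 of Day 7 and at 27.0 and 22.3 CPM in the shallow cluster 8 of Day 10, which was led by Myh11. Nrp1 at Day 7 was at 142.6 and 139.6 CPM in cluster 9 and at 74.9 and 70.4 in cluster 2, but also at 88.4 and 64.9 in the shallow cluster 12, where Flt1 was at 8.34 and 5.41.

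Flt1 differed between deep clusters with chondrocyte markers raised. At Day 2 it was at 18.9 and 16.5 CPM in cluster 5, with Snorc, Ihh, Matn1 and Acan. The large chondrocyte-like cluster 0 of Day 7 had 0.39 and 0.50 CPM (29 and 35 UMIs) and cluster 1 of Day 10 had 0.42 and 0.73, at median depths of 27584 and 26858 and of 36840 and 33627 UMIs. It was higher in 2 smaller deep clusters with 7 of 8 chondrocyte markers raised, at 4.78 and 3.07 CPM in cluster 13 of Day 7 (89 and 79 cells) and at 7.60 and 5.93 in cluster 14 of Day 10 (264 and 196 cells), which had immune and mural markers raised as well. A Flt1 UMI was found in 1.08% and 1.34% of cells of cluster 0 of Day 7 and in 21.3% and 23.8% of cells of cluster 2 of that day, whose medians were 30187 and 30678. The Day 2 myocyte-like cluster 10 was also low, with Flt1 at 1.91 and 1.05, Nrp1 at 4.87 and 1.81 and Nrp2 at 11.4 and 13.2 CPM, the lowest of the 11 clusters with at least 10 cells in both libraries for all 3 genes.

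Vegfa was highest in other clusters, but not all of its peaks were apart from those of Flt1. At Day 10 cluster 8, where Flt1 and Nrp1 were highest by the mean of both libraries, came next for Vegfa. At Day 2 it ran from 15.5 CPM (mean of both libraries, cluster 3) to 60.1 in the interdigital-like cluster 9 (61.6 and 58.6), where Msx1, Hoxd13 and Aldh1a2 were raised and Flt1 was at 3.26 and 1.57. The Day 2 cluster with the most Vegfc (cluster 3, 23.2 and 23.4 CPM) had the least Vegfa by the mean of both libraries and in replicate A (11.2), while in replicate B (19.8) clusters 10 and 7 were lower (19.1 and 19.2). At Day 7 Vegfa was highest in the chondrocyte-like cluster 10 (106.3 and 117.0, medians of 7640 and 7003 UMIs) and the interzone-like cluster 3 (95.9 and 103.9, medians of 9831 and 8789), and stood at 52.3 and 52.1 in the deep chondrocyte-like cluster 0. At Day 10 it was highest in the chondrocyte-like cluster 9 (113.7 and 114.3, medians of 8233 and 7982), then in cluster 8 (95.2 and 93.1, medians of 7423 and 6746). Among deep clusters of Day 10 it was highest in cluster 7 (79.1 and 88.3), which was led by the mineralization genes Ibsp and Ifitm5, against 55.5 and 55.4 in the chondrocyte-like cluster 1. The shallow clusters where Vegfa peaked were rich in Neat1 too, with 557.0 and 546.1 CPM in cluster 10 and 452.0 and 386.3 in cluster 3 of Day 7, and 804.0 and 628.8 in cluster 9 and 623.4 and 740.6 in cluster 8 of Day 10. The part of depth and of nuclear RNA in the Vegfa peaks was not tested.

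The remaining ligands had peaks of their own. Pgf was highest in the myocyte-like cluster of Day 2 (18.5 and 16.8 CPM) and, by the mean of both libraries, in the tenocyte-like cluster 0 of Day 10, with Tnmd and Scx (14.5 and 15.6), although in replicate A the shallow cluster 13 had 19.5. It was at 1.21 and 1.45 in chondrocyte-like cluster 0 of Day 7 and at 1.85 and 2.72 in cluster 1 of Day 10. Vegfb peaked in the interdigital-like cluster of Day 2 (108.9 and 96.6). By the mean of both libraries Nrp2 was lowest in chondrocyte-like cluster 0 of Day 7 (30.5 and 25.6, although the shallow myocyte-like cluster 14 was slightly lower in replicate A) and cluster 1 of Day 10 (40.3 and 47.1), and among deep clusters it was highest in the immune-like cluster 15 of Day 7 (244.3 and 265.8) and in the Ibsp and Ifitm5 cluster 7 of Day 10 (257.2 and 285.6). At Day 2 most Kdr lay outside the immune-like cells, and clusters 3 and 7, where Flt1 peaked, held 30.2% and 27.6% of Kdr UMIs in replicate A and 20.7% and 18.3% in replicate B, in 7.68% and 20.6% and in 7.26% and 13.9% of all UMIs. Kdr exceeded 3 CPM only in immune-like clusters, of those with at least 10 cells in a library (13.1 and 38.5 at Day 7, 38.5 and 26.2 at Day 10).

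Whether Vegfa is held by hypertrophic cartilage was asked of the cluster with the most Col10a1 (collagen X, the hypertrophic chondrocyte collagen) of each day, set against the mean of the other clusters. At Day 10 that was the chondrocyte-like cluster 9, and 4 of 8 genes tested differed (background 54.0% of 13979 genes). Vegfa was higher (1.20 ± 0.08, adjusted p = 4.21e-14), while Vegfb (-0.39 ± 0.15, adjusted p = 0.0272), Pgf (-1.87 ± 0.37, adjusted p = 7.86e-05) and Flt1 (-1.71 ± 0.46, adjusted p = 0.00257, edgeR's quasi-likelihood test with Benjamini-Hochberg adjustment) were lower. Vegfb missed the threshold with the other (RLE) size factors (-0.31, adjusted p = 0.0773), and Pgf and Flt1 did at 2 times the resolution (-1.54 and -1.45, adjusted p = 1.0 for both). Other settings added calls, with Vegfc lower at 0.5 times the resolution (-1.42, adjusted p = 0.0168), with 20 dimensions (-1.19, adjusted p = 0.0423) and without integration (-1.02, adjusted p = 0.0063), Nrp1 higher at 2 times the resolution (0.37, adjusted p = 0.0194) and with RLE size factors (0.33, adjusted p = 0.0201), and Nrp2 lower without a filter on low counts (-0.35, adjusted p = 6.52e-05). The cluster was shallow and rich in Neat1, as given above, whereas the deep chondrocyte-like cluster 1 had Col10a1 at 279.8 and 177.5 CPM and Vegfa at 55.5 and 55.4, and the deep cluster 14 had Col10a1 at 408.2 and 241.1 and Vegfa at 62.2 and 58.4. The choice rested on 1 library. Col10a1 stood at 904.8 CPM in replicate A and 102.8 in replicate B, and by replicate B alone cluster 8 was picked, with Vegfa at 93.1 CPM. At Day 7 the pick was the shallow cluster 9, which had 3 hypertrophic markers raised, Mmp13 among them, beside 5 myocyte and 6 mural markers, and 4 of 8 genes differed (background 60.1% of 13375 genes), namely Flt1 (3.36 ± 0.19), Nrp1 (1.35 ± 0.10) and Nrp2 (1.40 ± 0.08) upward and Vegfb (-1.21 ± 0.20) downward. Vegfa there was 72.1 and 72.4 CPM (0.21 ± 0.10, adjusted p = 0.0808), and with 20 dimensions the pick passed to a larger cluster where Vegfa was lower than elsewhere (-0.51, adjusted p = 5e-06), while at 2 times the resolution Vegfa passed as higher (0.325, adjusted p = 0.00377). The clusters were drawn from the same cells, and n = 2 libraries.

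Ligand and receptor were next counted in the same cells, with every cell of at least 5000 UMIs thinned to 5000. The shares below are of these 7143 to 8626 cells per library, and 822 to 9343 shallower cells per library were left out, most in Day 2 replicate B. Vegfa and Flt1 were found together in 0.742% and 0.910% of cells at Day 2, 0.575% and 0.605% at Day 7, then 0.664% and 0.524% at Day 10. The product of their separate shares was 0.994% and 0.950%, 0.550% and 0.607%, and 0.709% and 0.578%. The pair was thus under the product in 5 of the 6 libraries and above it in Day 7 replicate A. It rested on 39 to 65 cells per library, and outside Day 2 replicate A its share lay close to the product. Flt1 and Nrp1 were together more often than their product in all 6 libraries. A Nrp1 UMI was found in 24.6% to 36.2% of cells with Flt1 and in 14.0% to 22.0% of cells without. Cells with both neuropilins were also above the product in all 6 libraries, with Nrp2 in 20.6% to 45.2% of cells with Nrp1 and 18.1% to 39.4% of cells without. No test was made over cells, barcodes holding 2 cells were not removed by a caller, and UMIs from free RNA were not estimated, so these shares describe UMIs in the same barcode.

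The genes most alike to each member were sought over the 91 sums of cluster and library, among 8330 genes. Vegfa was nearest to Adgrg2 (Pearson r = 0.832), P4ha1 (0.817), a collagen prolyl hydroxylase, and Nrbp2 (0.814). Flt1 was nearest to the actin-binding genes Actn4 (0.865) and Flna (0.785) and to Filip1l (0.820), and Nrp1 to Emp1 (0.828), Itga5 (0.796), the fibronectin receptor subunit, and Tmem43 (0.790). Vegfb was nearest to Zfp580 (0.909), Mocs2 (0.906) and 0610010K14Rik (0.904), and Nrp2 to Bhlhe40 (0.872), Ece1 (0.838) and Ppp1r9b (0.826). Among the members the highest value was between Nrp1 and Nrp2 (0.683). The sums share libraries and differ in depth, so these are descriptions.

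Genes around the VEGF system were counted in lists. Over all genes tested, 35.7% rose and 34.6% fell from Day 2 to Day 7, and 26.3% rose and 25.9% fell from Day 7 to Day 10. Of 12 semaphorins and plexins, the other partners of neuropilins, 6 rose and 5 fell from Day 2 to Day 7, 3 rose and 5 fell from Day 7 to Day 10, and the median log2 fold change over the list was 0.25 and -0.11, against 0.01 and -0.02 over all genes. The repellents Sema3a (41.0 to 15.4 CPM, mean of 2 libraries, log2 -1.42) and Sema3e (9.55 to 3.70, -1.37) fell, and Sema3g rose (0.16 to 1.19, 2.87). Of 23 genes tested of the signalling steps behind VEGF receptors, 10 rose and 10 fell to Day 7 and 9 rose and 4 fell to Day 10 (medians -0.08 and 0.09), with Sphk1 (sphingosine kinase) up by 2.46 and 0.74 and Esm1 (endocan), a gene of sprouting endothelium, down by 2.03 and up by 2.29 from levels under 1.1 CPM.

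Of 10 other angiogenic factors tested, 7 rose and 2 fell to Day 7 (median log2 fold change 0.58), led by Apln (2.44), Angpt1 (2.33) and, downward, Pdgfb (-1.45). From Day 7 to Day 10, 6 rose and 1 fell (median 0.38), led by Hgf (1.11), Adm (0.86) and Ccn1 (0.68). For these and the next lists, the shares of all genes were 35.7% rising and 34.6% falling to Day 7, and 26.3% and 25.9% to Day 10. Of 11 antiangiogenic genes 7 rose and 4 fell to Day 7, and 7 rose and 3 fell to Day 10, with medians of 0.37 and 0.24. Cnmd (chondromodulin, made by cartilage) rose from 16.3 to 504.3 CPM (4.96) and fell to 204.6, Thbs2 (thrombospondin 2) rose from 12.5 to 98.6 and 148.8 CPM and Vash1 fell by 2.62. Of the 18 genes of the hypoxia list 14 rose and 1 fell to Day 7, and 2 rose and 8 fell to Day 10, the median log2 fold change being 0.83 and -0.16. Car9 (carbonic anhydrase 9) rose from 0.41 to 35.6 CPM and fell to 13.2, Bnip3 rose from 54.3 to 250.2 and fell to 152.2, and Ndrg1 rose from 1.19 to 18.1 CPM. Of 10 immune genes 6 rose to Day 7 and 9 to Day 10, and none fell. Of 6 osteoclast genes tested 3 and 6 rose, where 35.7% and 26.3% of all genes did. The remaining 4 immune and 3 osteoclast genes were not called to Day 7. Of 11 genes induced by dissociation, 6 rose and 4 fell to Day 7 and 8 rose to Day 10, and their part in the changes of the VEGF genes was not tested.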

How the data were processed

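Single-cell RNA sequencing was done by the authors on 6 droplet libraries (10x Genomics 3' chemistry), 2 cultures per day at Day 2, Day 7 and Day 10. Reads were aligned by the authors to mm10 (GRCm38) with Cell Ranger 6.1.2, and the deposited matrices hold raw UMI counts per gene and barcode, one matrix per library, before the filters of their Seurat 4.1.0 analysis. Whole-number values were checked in every matrix, and no value was normalized before deposit. Total counts per library set the precision of each level: 178022112 to 260245417 UMIs remained after filtering.

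The study's limits were applied per library (200 to 7500 genes, at least 800 or 1000 UMIs, at most 25, 30 or 40% mitochondrial and 35 or 40% ribosomal UMIs). No doublet caller was run, so the upper limit on genes is the only treatment of doublets. UMIs were summed per library, per class of cells within a library, or per cluster and library (at least 10 cells), and tested with edgeR 4.0.16 in R 4.3.3 (filterByExpr, TMM, quasi-likelihood test, Benjamini-Hochberg adjustment over all genes tested, adjusted p under 0.05). Library was a block for classes and a covariate for clusters. Classes were cells with a UMI of at least 3 of 16 endothelial genes, Pecam1 or Cdh5 among them, and cells with a UMI of at least 4 of 10 immune genes. Clusters were rebuilt per day with Seurat 5.3.0 and sctransform 0.4.2 (S minus G2M score regressed out, anchors over 3000 features, 35 dimensions, resolution 0.5 at Day 2 and Day 7 and 0.7 at Day 10) with the 9 genes left out of the features, whereas the study integrated all genes. Pairs of genes in 1 cell were counted after thinning cells to 5000 UMIs. Some comparisons, among them a comparison of whole cultures and that of immune-marker cells at Day 10, were also run on simulated counts with known changes.

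The 9 genes and all lists were chosen with earlier results of these data known. Named were all 9 genes, the genes that define classes, of each list at most the 3 called genes of greatest absolute log2 fold change in a whole-culture comparison, and the 3 genes most correlated with each of Vegfa, Vegfb, Flt1, Nrp1 and Nrp2 (log2(CPM + 1), genes with a mean of at least 10 CPM). Genes that lead a cluster were named from the cluster tables, and Ctsk, Mrc1 and Neat1 were named after their values were seen. Gene identifiers were matched to GENCODE vM21 (GRCm38), and upstream sequences came from RefSeq on GRCm38.p6. Replicate letters did not pair libraries across days (correlations of deviations of -0.027 to -0.090). Alternatives tried were other normalization, filters, gates, depths, clustering settings, DESeq2 1.42.0 and leaving out each library. Staining and imaging were not used here.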

Additional observations from a re-analysis of the deposited data

Results flagged for a closer look

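In 9 results the difference between a class of cells and the other cells of the same libraries was not the same on 2 days, by a test of the difference of the differences (edgeR's quasi-likelihood test with Benjamini-Hochberg adjustment over all genes tested). All values are log2 fold changes of the later day minus those of the earlier day, and both classes are small.

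In endothelial-marker cells, Flt1 was the 1 member with such a difference, with an effect that was larger at Day 10 than at Day 2 by 1.75 ± 0.36 (adjusted p = 0.000197). The class lay in different clusters on the 2 days, with 9 of 30 and 8 of 31 of its cells in cluster 1 at Day 2 (5 and 2 in cluster 3, 5 and 4 in cluster 7) and 7 of 20 and 11 of 29 in cluster 3 at Day 10, one of the clusters where Flt1 was high, and the part of this in the difference was not tested. In immune-marker cells, the effect on Kdr was larger than that of Day 2 by 6.62 ± 1.30 at Day 7 (adjusted p = 1.8e-05) and by 6.38 ± 1.23 at Day 10 (adjusted p = 8.88e-06), where the Day 2 cells held 0 and 1 Kdr UMIs. Vegfc had 0 and 1 UMIs in the Day 2 class, and its effect was larger by 3.93 ± 1.20 at Day 7 (adjusted p = 0.0181) and by 3.67 ± 1.13 at Day 10 (adjusted p = 0.0169).

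The effect on Vegfb was larger than that of Day 2 by 0.93 ± 0.29 at Day 7 (adjusted p = 0.0193) and by 0.76 ± 0.26 at Day 10 (adjusted p = 0.0423), with 25 and 20 UMIs in the Day 2 class. That on Nrp2 was larger by 0.71 ± 0.22 at Day 7 than at Day 2 (adjusted p = 0.0234), and the Day 2 effect itself rested on 1 library. Pgf turned from higher at Day 7 to lower at Day 10, a difference of -2.67 ± 0.61 (adjusted p = 0.00181), on 7 to 12 UMIs per library. These UMIs lay in 4 cells of each library at Day 7 and in 6 and 7 cells at Day 10. The Day 7 call itself was lost with at least 3 immune genes required (1.04, adjusted p = 0.0595).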

How the results depend on the processing

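Of 399 values of members in whole cultures under the alternatives, 376 kept their side of the threshold and, where they passed it, their direction. So did 252 of 270 for endothelial-marker cells, 228 of 243 for immune-marker cells and 74 of 96 for the Col10a1 clusters. A change of direction between values that did not pass was not counted. Genes under 1 CPM and classes of few cells are limited by depth. Without immune-marker cells, Kdr from Day 2 to Day 10 turned to -1.63. Nrp2 in immune-marker cells at Day 2 was -0.041 without replicate A of that day, and from there to 0.98 over the libraries left out. Between Day 7 and Day 10, 2 members passed in cells thinned to 1000 UMIs in place of 6, while calls over all genes fell as well, to 3349 of 13846 from 9913 of 18987, and Flt4 from Day 2 to Day 7 passed with all deposited barcodes (0.80, adjusted p = 0.0143). With at least 4 endothelial genes required, 0 members passed in place of 5. Over all genes 244, 168 and 121 of 17399 then passed at Day 2, Day 7 and Day 10. With 3 genes required these were 276, 359 and 507 of 17588. The counts in the next sentence come from fits that left 1 culture on a day. Calls over all genes changed in those fits too, so these counts are no result about the members alone. With 1 library left out, members called ranged from 7 to 8 between Day 2 and Day 7, from 4 to 7 between Day 7 and Day 10, were 7 between Day 2 and Day 10, and ranged from 3 to 4 in endothelial-marker cells and from 12 to 16 over the 3 days in immune-marker cells. The Day 7 cluster with the most Col10a1 moved to another cluster with 0.5 times the resolution, 20 dimensions or no integration, where 7 members passed each time in place of 4 (over all genes 6115 of 15141, 8121 of 14663 and 5318 of 15608 passed, in place of 8041 of 13375), Vegfa was -0.40, -0.51 and -0.46 (36.98, 37.1 and 38.88 CPM) and Vegfb 0.35, 0.53 and 1.25. With 2 times the resolution Vegfa there was 71.9 CPM and passed as higher (0.325, adjusted p = 0.00377), and picked from 1 library it was 38.26 to 72.41 CPM. At Day 10 Vegfa was 114.6 CPM with 20 dimensions, 98.72 without integration and 93.12 to 113.7 CPM picked from 1 library. The cause of these moves was not tested beyond the change of cluster.

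With the replicate letter as a replicate block, 8, 6 and 7 members passed from Day 2 to Day 7, from Day 7 to Day 10 and from Day 2 to Day 10, as without it. Over all genes 13135, 9607 and 14524 of 18987 passed with the block. The block changed no call of a member, and the letters did not pair the libraries (correlations of deviations of -0.027, -0.078 and -0.09). In whole cultures, DESeq2 called 8, 6 and 7 members, and over all genes it called 12194, 8863 and 13638 of 26597. Each pair of replicates differed by more than counting noise (chi-square per gene of 13.5 to 97.9).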
